A study of Homo sapiens with 8 samples.

Results

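Chromatin accessibility was followed at the genes of 6 matrix proteins, COL1A1, COL1A2, COL4A1, COL4A2, FN1 and SPARC, while SMARCB1 was restored to rhabdoid tumour cells. The members are all called ATAC-seq peaks that lie in the hg19 span of each gene or within 50 kb on either side of it; COL4A1 and COL4A2 are neighbours and share 1 span, so there are 5 spans. The spans took in 91 merged regions (unions of overlapping peaks) of 146099 in the whole series, or 270 of 411408 peaks. Members were set by position alone. ATAC-seq uses a transposase that cuts and tags open DNA, and a peak is a stretch with more tagged reads than its surroundings.

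The cells were G401, an established human line derived from a kidney rhabdoid tumour. It has no SMARCB1, a subunit common to SWI/SNF complexes, which move nucleosomes. All groups carried an inducible SMARCB1 in a stable line kept in tetracycline-free serum, so the uninduced cells carry the construct too; nothing used here says whether the line is a single clone. The groups were day 0 (labelled SMARCB1 -/-) and days 1, 3 and 7 of doxycycline at 1 µg/ml (labelled SMARCB1 +/+), with 2 replicates each. The deposited values are 1 peak list for each of the 4 groups, so no difference between days below carries a replicate error or a p-value. Of the 4 lists 1 is named without a day or doxycycline; it was assigned to day 0 by elimination, and each value given for day 0 depends on that.

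Type I collagen, built from the COL1A1 and COL1A2 chains, is the main fibre of bone, skin and tendon. Type IV collagen, in most tissues built largely from COL4A1 and COL4A2 chains, forms the sheet of basement membranes. Fibronectin, from FN1, links fibres to integrins on the cell surface, and SPARC is a secreted calcium- and collagen-binding protein that is active where matrix is remodelled.

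Every span held more peaks on days 1 and 3 than on day 0, and on day 7 all but COL1A1 did. Over the 5 spans there were 47, 74, 78 and 71 peaks on days 0, 1, 3 and 7. Relative to day 0 that is 1.57, 1.66 and 1.51 times as many on days 1, 3 and 7, where the whole lists held 1.36, 1.46 and 1.28 times as many. The called length was 29.5, 45.1, 48.3 and 43.5 kb on days 0, 1, 3 and 7. The COL1A1 span had 17, 20, 21 and 17 peaks and the COL1A2 span 11, 15, 15 and 14 on the same days. The COL4A1/COL4A2 span had 10, 18, 21 and 15 peaks, and the FN1 span 2, 8, 7 and 7. The SPARC span had 7, 13, 14 and 18 peaks, and was the only one of the 5 with its highest count on day 7. Depth differed little between the lists: the genome-wide background was 6.34, 6.04, 6.73 and 6.10 reads per position on days 0, 1, 3 and 7, and the smallest called summits held 18, 16, 17 and 18 reads.

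**Figure D1:**
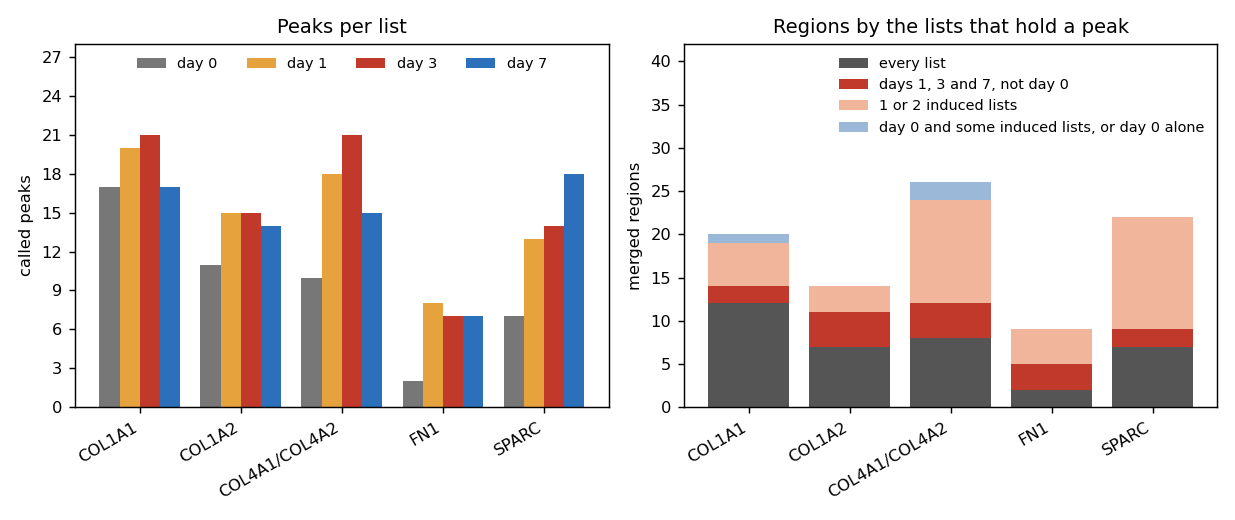
Left, called peaks (y axis, number) in each gene span plus 50 kb on both sides for the lists of days 0, 1, 3 and 7, side by side. Right, merged regions (y axis, number) per span, divided by the lists in which they hold a peak; of 91 regions 36 were in every list and 15 were in the lists of days 1, 3 and 7 but not day 0.

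Most regions called before induction were still called afterwards, and more regions were gained than lost. Of the 91 regions, 36 (39.6%, exact Clopper-Pearson 95% interval 29.5 to 50.4) had a peak in every list, against 41.6% of all regions. A peak was gained, that is called on the day but not on day 0, in 30 regions on day 1 (33.0%, 23.5 to 43.6), 35 on day 3 (38.5%, 28.4 to 49.2) and 27 on day 7 (29.7%, 20.5 to 40.2). The same call was made in 26.7%, 32.9% and 24.2% of all regions on days 1, 3 and 7, which lies inside each of those intervals. Regions gained on all 3 induced days numbered 15 (16.5%, 9.53 to 25.7), against 13.1% of all regions. Of 39 regions with a day 0 peak, 2 (5.13%, 0.627 to 17.3), 1 (2.56%, 0.0649 to 13.5) and 3 (7.69%, 1.62 to 20.9) had none on days 1, 3 and 7, against 13%, 14.6% and 17.4% of all such regions. The series' share lies inside the interval on days 1 and 7. Where peaks had to overlap by 50% of both, the 47 day 0 peaks of the spans were compared. Of these, 8, 9 and 10 had no counterpart on days 1, 3 and 7. This rule counts peaks in place of merged regions, and its share over the series was not worked out. The loss of merged regions can also be given as a share of all 91 member regions or of all regions. It is then 2.20%, 1.10% and 3.30% in the spans and 6.97%, 7.86% and 9.34% in the series. By span, 10 of 22 SPARC regions were gained on day 7. The counts were 2 of 20 in COL1A1, 4 of 14 in COL1A2, 7 of 26 in COL4A1/COL4A2 and 4 of 9 in FN1. Without the SPARC span the day 7 gains thus numbered 17 in place of 27, beside the 24.2% of all regions given above.

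With each list held to the 80744 peaks of the shortest, the gains on days 1, 3 and 7 numbered 11, 17 and 14 of 60 regions (18.3%, 28.3% and 23.3%), and 17.3%, 20.9% and 18.7% of all regions were gained. The losses were then 5, 4 and 4 on days 1, 3 and 7 (8.33%, 6.67% and 6.67%), against 16.4%, 19.8% and 18% of all regions. Gains outnumbered losses in the spans with lists of equal length too.

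The split between flanks and gene spans was as follows. Of the 15 regions gained on all 3 induced days, 13 were in the flanks and 2 in the gene spans, both of these in COL4A1/COL4A2. Of all 91 regions, 63 were in the flanks and 28 in the gene spans, and of the 52 without a day 0 peak 38 were in the flanks and 14 in the gene spans, a split close to that of all regions. By side, 8 of the 15 were in the upstream flanks of COL1A1, COL1A2, FN1 and SPARC, 3 in the downstream flanks of COL1A2 and FN1, and 2 beyond the outer end of COL4A2. The upstream flanks, the downstream flanks and the flank beyond COL4A2 held 23, 29 and 6 regions in all. Of these, 16, 15 and 5 had no day 0 peak. A share over the series was not worked out for this split. The intervals above treat regions as independent draws, which neighbouring regions need not be.

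**Figure D2:**
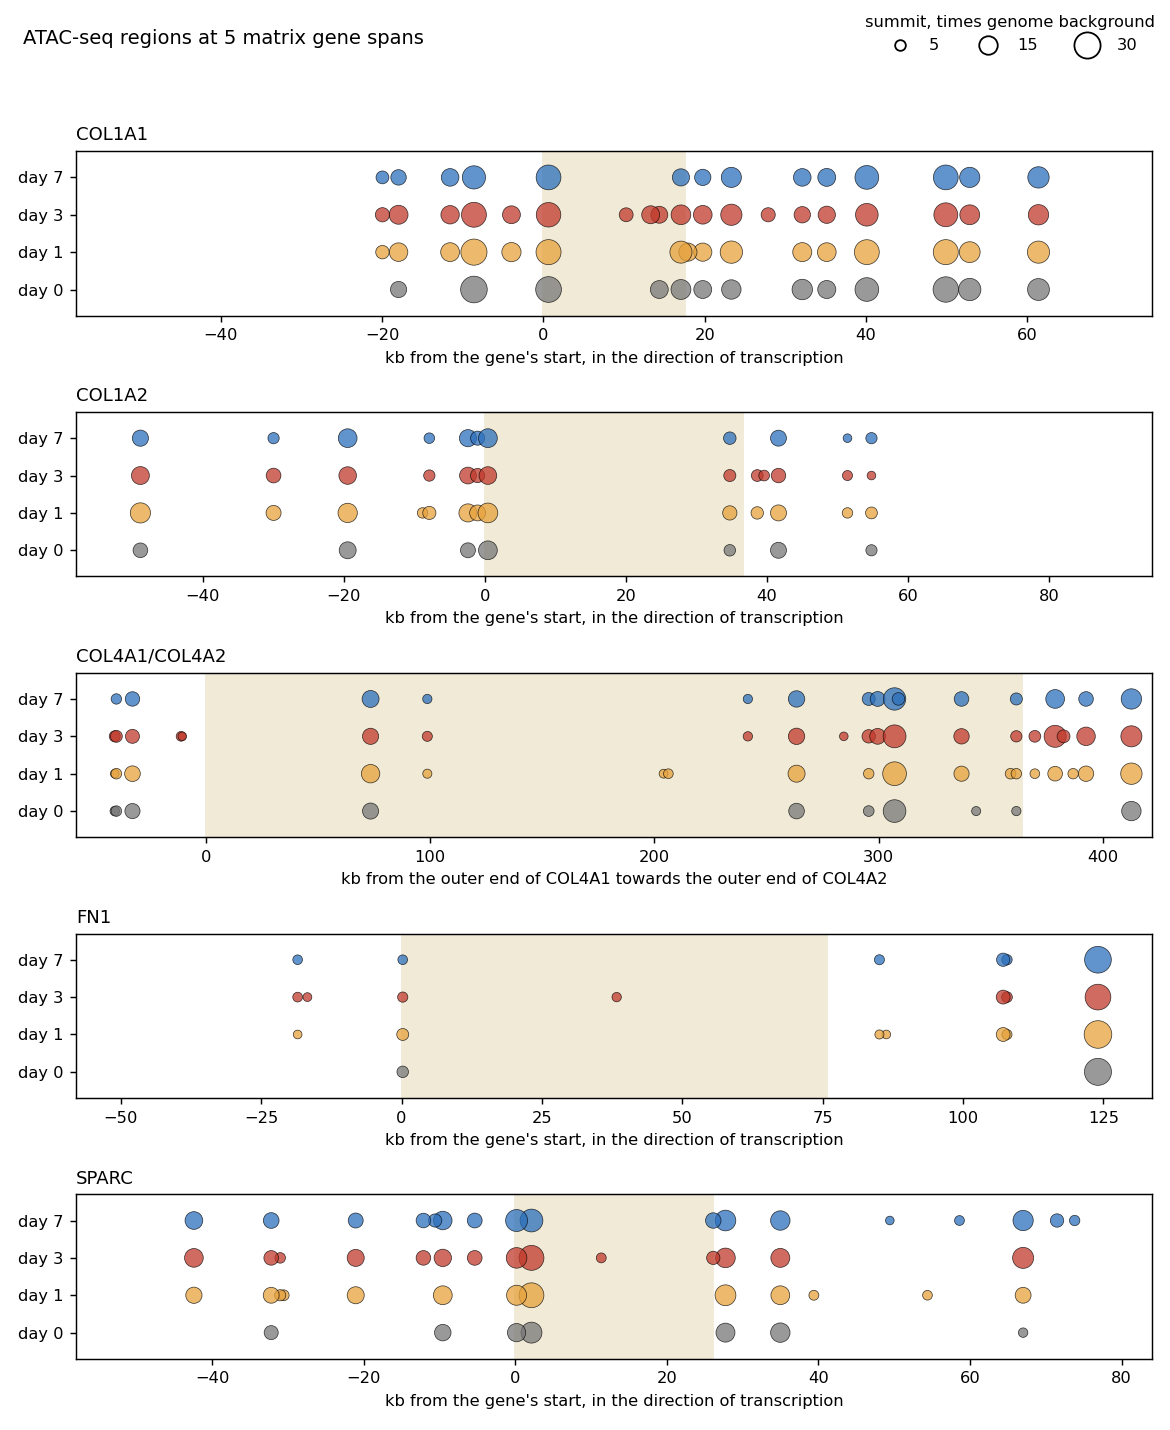
Each circle is a region with a peak in the list of that day (rows), at its distance in kb from the gene's start (x axis; for COL4A1/COL4A2 from the outer end of COL4A1), with an area that follows its summit in multiples of the genome-wide background. The shaded band is the gene span; circles present in the rows of days 1, 3 and 7 but not day 0 lie mainly left or right of it.

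The gene starts that could be placed, those of COL1A1, COL1A2, FN1 and SPARC, were already open on day 0. The shared COL4A1/COL4A2 start was not placed, so its state is not given. The start of COL1A1, COL1A2, FN1 and SPARC was taken as the end of the span at which transcription begins, and in each of the 4 genes a region overlapping it had a peak in every list. Heights are given as summit reads and as scaled summits, which are reads divided by the genome-wide background of the list.

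At the COL1A1 start (chromosome 17, 48277399 to 48279334) the summit held 184, 166, 177 and 164 reads on days 0, 1, 3 and 7. Scaled, it was 29.0, 27.5, 26.3 and 26.9 times the background, and between 92.1% and 94.5% of the peaks of each list were lower. The ratios to day 0 for days 1, 3 and 7 were 0.947 (95% interval for counting error 0.763 to 1.17), 0.907 (0.734 to 1.12) and 0.927 (0.746 to 1.15). At the COL1A2 start (chromosome 7, 94023518 to 94025093) the summit held 98, 103, 92 and 95 reads, and the ratios to day 0 were 1.10 (0.828 to 1.47), 0.885 (0.659 to 1.19) and 1.01 (0.752 to 1.35). By the authors' fold the COL1A1 start had ratios of 1.09 on day 3 and 1.15 on day 7, above 1, and the COL1A2 start 0.984 on day 1 and 0.935 on day 7, below 1. For neither type I collagen start did an interval leave out 1, and on each day the COL1A1 start had more summit reads than the COL1A2 start.

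A second region near the COL1A2 start was called on the induced days alone. It lies at 94022689 to 94022996, with its centre 1.0 kb upstream, and held 67, 60 and 53 reads on days 1, 3 and 7. It was 308 bp long and its fold over the local background, the authors' own value, was 2.37, 2.19 and 1.93, so it stood little above its surroundings.

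The FN1 start (chromosome 2, 216300179 to 216301186) had the lowest summit of the 4 starts in every list, with 37, 38, 31 and 25 reads on days 0, 1, 3 and 7. Of the day 7 peaks 8.42% were lower, and of the day 0 peaks 27.7%. The ratios to day 0 for days 1, 3 and 7 were 1.08 (0.667 to 1.74), 0.790 (0.474 to 1.31) and 0.703 (0.405 to 1.2), so a change was not detectable at this depth. Its called length was 910, 943, 854 and 593 bp on days 0, 1, 3 and 7.

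The SPARC start (chromosome 5, 151066189 to 151066944) had 93, 106, 125 and 129 summit reads on days 0, 1, 3 and 7. The ratios to day 0 for days 1, 3 and 7 were 1.2 (0.897 to 1.60), 1.27 (0.961 to 1.68) and 1.44 (1.10 to 1.90). The day 7 interval lay above 1; by the authors' fold the ratio was 1.24 on day 7 and 0.956 on day 1. It was the only one of the 4 starts with an interval that left out 1 on any day.

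The promoters of FN1 and SPARC are shown because these starts had the lowest summits and the one change beyond counting error. They are the 250 bases before the start in RefSeq on GRCh38.p14, 5′ to 3′ on the gene's strand, at chr2:215436069-215436318 (minus strand) and chr5:151686916-151687165 (minus strand); they were matched by gene name, since the peaks are in hg19. Capitals mark matches on either strand to TGACGTCA (cAMP response element), GGGCGG (GC box), CCAAT and GGAGGA, a purine repeat, overlapping matches included.
FN1: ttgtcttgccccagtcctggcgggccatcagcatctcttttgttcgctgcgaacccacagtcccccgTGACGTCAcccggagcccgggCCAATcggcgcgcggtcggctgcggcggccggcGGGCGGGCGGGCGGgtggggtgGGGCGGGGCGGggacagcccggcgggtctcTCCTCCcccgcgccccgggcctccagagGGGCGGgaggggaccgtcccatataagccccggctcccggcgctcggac
SPARC: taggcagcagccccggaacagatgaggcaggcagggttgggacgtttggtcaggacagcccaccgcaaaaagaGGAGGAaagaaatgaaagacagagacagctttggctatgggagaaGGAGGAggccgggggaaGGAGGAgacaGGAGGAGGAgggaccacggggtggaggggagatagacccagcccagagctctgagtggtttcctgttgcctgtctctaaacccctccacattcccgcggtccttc

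FN1 held 1 TGACGTCA, 1 CCAAT, 6 overlapping or separate GGGCGG and 1 GGAGGA, and SPARC held 5 GGAGGA and 0 of the other 3. Over 35116 RefSeq promoters of the same length, TGACGTCA was in 1.65%, CCAAT in 32.0%, GGGCGG in 42.6% and GGAGGA in 31.8%. The letters TGANTCA, the site of AP-1, a dimer of the FOS and JUN families, were in neither window and in 6.57% of all promoters. The exact core promoter letters TATAAA were in neither and in 10.7%, and near matches were not counted. The base composition was 76.4% G and C with 32 CG pairs in FN1 and 59.2% with 7 pairs in SPARC, where the median promoter had 58% and 11 pairs. RefSeq promoters were matched for FN1, SPARC, COL4A1 and COL4A2, 4 of the 6 genes. These matches describe the letters in a window and say nothing of binding.

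The COL4A1 and COL4A2 genes are transcribed away from each other from a shared promoter inside their common span. The position of that start in hg19 was not placed here, because the span gives only the outer ends of the pair. The largest stretch without a peak in any list in the 5 spans lay inside this one, at 110900181 to 111005272 on chromosome 13, and was 105 kb long. The numbering of peaks ran without a gap through all 5 spans in each list. Peaks removed before the numbering was made, or beyond the outermost peaks of a span, would not show in it.

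Among regions with a peak on both days, the median summit height changed little, and only 1 region, in the SPARC flank, changed at least 2-fold. Smaller changes beyond counting error are counted below. The median log2 ratio to day 0 over the spans for days 1, 3 and 7 was 0.14, 0.06 and 0.01 (37, 38 and 36 regions), and over all regions it was 0.07, -0.08 and -0.04. A summit at least 2-fold higher than on day 0 was seen in 1 member region on each of days 1, 3 and 7, against 3.48%, 3.66% and 2.1% of all regions, and in each case it was the same one. None of the member regions was at least 2-fold lower, a call made in 0.0146%, 0.0686% and 0.0585% of all regions. The counting interval lay above 1 in 5 member regions on day 1, 4 on day 3 and 2 on day 7, against 9.13%, 8.02% and 5.08% of all regions. It lay below 1 in 0, 1 and 2 member regions, against 0.433%, 2.93% and 1.68%.

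The spans differed in their medians. For SPARC the median log2 ratio over 7 regions for days 1, 3 and 7 was 0.35, 0.14 and 0.32, and for COL1A2 over 7 regions 0.38, 0.10 and 0.24. By the authors' fold these medians were -0.07, -0.20 and -0.19 for SPARC and 0.01, -0.12 and -0.10 for COL1A2, so their direction depends on the scale. For COL1A1 the medians were 0.05, -0.14 and -0.12 over 12, 13 and 12 regions, and on day 7 10 of its 12 regions had a summit below their day 0 one, as did 37782 of 64935 regions in the series. By fold the COL1A1 medians were 0.05, 0.05 and 0.06. COL4A1/COL4A2 regions had medians of 0.13, 0.23 and 0.14 over 9, 9 and 8 regions, and by fold 0.08, -0.07 and -0.12. None of these differences between spans was tested.

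**Figure D3:**
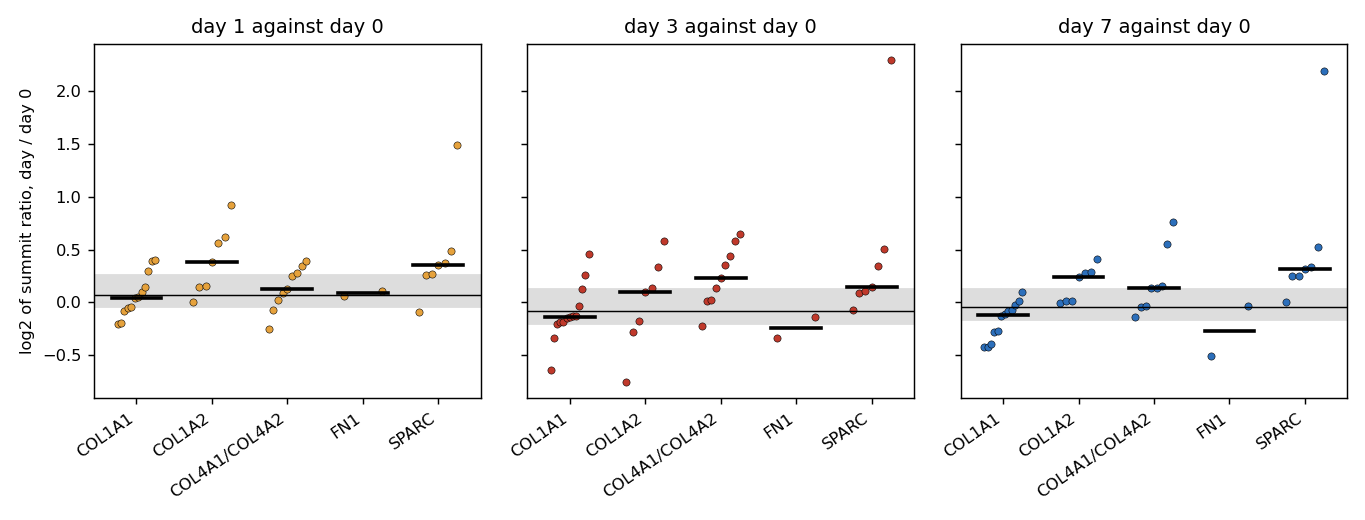
Log2 ratio of the scaled summit on days 1, 3 and 7 to day 0 (y axis) for each region with a peak on both days (dots), by gene span; thick lines are medians of the span. The grey band runs from the lower to the upper quartile of all regions in the series and the thin line their median; the dot highest in each panel is the SPARC region 67.0 kb from the start, at 1.49, 2.29 and 2.19.

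The SPARC region that stood apart lies 67.0 kb downstream of the start, past the end of the gene, on chromosome 5 at 150999162 to 151000284. Its summit held 25, 67, 130 and 110 reads on days 0, 1, 3 and 7. Its scaled summit was higher than 86.5% of the day 3 peaks and 6.80% of the day 0 peaks. The ratios to day 0 for days 1, 3 and 7 were 2.81 (1.75 to 4.65), 4.90 (3.18 to 7.86) and 4.57 (2.94 to 7.37). The background around it was 1.60-, 2.63- and 2.56-fold its day 0 value, and by the authors' fold the ratios were 1.71, 2.08 and 1.81. The called peak measured 258, 575, 1049 and 1003 bp on days 0, 1, 3 and 7. The ratio of day 3 to day 1 was 1.74 (1.29 to 2.38), and that of day 7 to day 3 was 0.933 (0.717 to 1.21).

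The highest summit of the span lay inside the gene, 2.1 kb from the start at 151064147 to 151065055, with 122, 163, 183 and 139 reads on days 0, 1, 3 and 7. Its ratios to day 0 for days 1, 3 and 7 were 1.40 (1.10 to 1.79), 1.41 (1.12 to 1.79) and 1.18 (0.922 to 1.52). By the authors' fold they were 1.19, 1.19 and 1.06, beside a local background 1.12, 1.26 and 1.08 times that of day 0. Upstream, the region at 151087245 to 151088345 had no day 0 peak and held 77, 86 and 60 reads on days 1, 3 and 7, at folds of 6.32, 6.80 and 5.52. The region at 151108534 to 151109762 had no day 0 peak and held 70, 103 and 84 reads, at folds of 7.19, 6.82 and 6.17. The lowest ratios of scaled summits were downstream, at 151031312 to 151032212. That region held 105, 94, 106 and 101 reads on days 0, 1, 3 and 7, with ratios of 0.940, 0.952 and 1.0. By the authors' fold its ratios were 0.838, 0.859 and 0.839. Of the 10 SPARC regions gained by day 7, 5 were in the day 7 list alone, with 20 to 48 reads and folds of 2.34 to 2.76. A further 3 were called on days 3 and 7 only: 151040251 to 151040971 with 52 and 64 reads, 151071867 to 151072316 with 64 and 59, and 151078614 to 151079102 with 63 and 57.

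In the COL4A1/COL4A2 span 3 of the 4 regions gained on all 3 induced days lay towards the COL4A2 end; the other, at 110899889 to 110900180, held 22, 30 and 23 reads. The highest of the 3, past that end on chromosome 13 at 111179520 to 111180446, had no day 0 peak and held 57, 143 and 94 reads on days 1, 3 and 7. Scaled, it was 9.43, 21.3 and 15.4 times the background, and it was the highest region gained on all 3 induced days in the 5 spans. The ratio of day 3 to day 1 was 2.25 (1.65 to 3.12) and that of day 7 to day 3 was 0.725 (0.553 to 0.947), or 1.44 and 0.828 by fold. Farther out in the same flank, 111193168 to 111194361 held 63, 101 and 57 reads, with ratios of 1.44 (1.04 to 2.01) and 0.622 (0.442 to 0.869) over the same steps, or 1.11 and 0.759 by fold. Both were highest on day 3 by more than counting error on either side. RefSeq lists RAB20, which encodes a small GTPase, as the protein-coding neighbour on this side of COL4A2. Its position was not placed in hg19, so these regions were not assigned to either gene. Inside the span, 111137808 to 111138658 held 61, 70 and 57 reads and had no such step, with ratios of 1.03 (0.721 to 1.48) and 0.898 (0.621 to 1.29).

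The strongest open region of the span was in every list. It lies near the COL4A2 end at 111107947 to 111108811 and held 143, 149, 154 and 134 reads on days 0, 1, 3 and 7, with ratios to day 0 of 1.09 (0.864 to 1.39), 1.02 (0.804 to 1.28) and 0.974 (0.764 to 1.24). Lower down, 111162279 to 111163082 held 24, 29, 38 and 39 reads, and its ratio reached 1.69 on day 7 (0.991 to 2.94). The region at 111096600 to 111097108 held 32, 29, 53 and 45 reads and reached 1.56 on day 3 (0.989 to 2.50). Neither interval left out 1. By the authors' fold the ratio at 111096600 was 0.920 on day 3 and 0.910 on day 7, below 1, beside a local background 1.89 and 1.61 times that of day 0. A peak of day 0 was lost by day 7 at 110760491 to 110760840, with 25 reads on day 0, and at 111144669 to 111144868, with 23 reads, both near the smallest summit called.

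COL1A2 gained 4 regions on all 3 induced days, among them 3 upstream. At 93993399 to 93994423 on chromosome 7 the summit held 60, 64 and 34 reads on days 1, 3 and 7, and the ratio of day 7 to day 3 was 0.586 (0.375 to 0.901). At 94015757 to 94016242, 7.9 kb upstream, it held 46, 38 and 30 reads, with a ratio of 0.742 (0.470 to 1.17) for day 3 to day 1 and 0.870 (0.521 to 1.44) for day 7 to day 3. The third upstream is the region beside the start described above, and the downstream one, at 94074991 to 94075606, held 29, 30 and 20 reads. All 4 had their highest scaled summit on day 1, but the interval of each ratio of day 3 to day 1 took in 1, and by the authors' fold 93993399 and 94074991 were highest on day 3.

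The outermost COL1A2 region, 48.8 kb upstream at 93973919 to 93976134, was the one with the highest summit of the span. It held 60, 108, 95 and 70 reads on days 0, 1, 3 and 7. Its ratios to day 0 for days 1, 3 and 7 were 1.89 (1.37 to 2.64), 1.49 (1.07 to 2.1) and 1.21 (0.847 to 1.74). The background around it was 1.75-, 1.63- and 1.35-fold its day 0 value, and by the authors' fold the ratios were 1.05, 0.995 and 0.877. A region nearer the start, 94021049 to 94021908, had a day 1 ratio of 1.47 (1.05 to 2.07), or 1.31 by fold. The body of COL1A2 was bare from 94025094 to 94058369, 33.3 kb without a peak in any list. Near the end of the gene, 94058370 to 94058849 held 37, 54, 43 and 42 reads, with a day 1 ratio of 1.53 (0.990 to 2.39). By the authors' fold its ratios for days 1, 3 and 7 were 0.891, 0.765 and 0.783, all below 1, beside a local background 1.69, 1.57 and 1.49 times that of day 0. The lowest ratio was past the gene at 94078502 to 94078896, with 35, 37, 22 and 34 reads and a day 3 ratio of 0.593 (0.331 to 1.04).

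The COL1A1 span was the one with the least gain in called length, at 1.10, 1.19 and 1.05 times that of day 0 on days 1, 3 and 7. Of its 20 regions 12 were in every list, and its peaks stood on a high local background, whose median was 7.25 times the genome-wide background on day 0 and 7.09, 6.0 and 5.52 times on days 1, 3 and 7. The median over the whole lists was 2.02, 1.84, 1.75 and 1.75. The part of this background in the calls was not tested. In RefSeq, SGCA, a muscle membrane protein gene, and PPP1R9B, which encodes the actin-binding protein spinophilin, are the protein-coding neighbours within 50 kb. Their positions were not placed in hg19, so regions of the downstream flank were not told apart by gene.

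The highest COL1A1 summit lay 8.6 kb upstream of the start, on chromosome 17 at 48286731 to 48288509, with 197, 181, 183 and 144 reads on days 0, 1, 3 and 7. Its ratio to day 0 was 0.964 (0.784 to 1.19), 0.876 (0.712 to 1.08) and 0.760 (0.609 to 0.947), but by fold the day 7 ratio was 1.04. The lowest ratio was downstream at 48246509 to 48247278, which held 116, 96, 79 and 83 reads. There the ratio to day 0 was 0.642 (0.476 to 0.862) on day 3 and 0.744 (0.554 to 0.995) on day 7, or 0.814 and 0.846 by fold. Higher summits were seen at 48255250 to 48256130 on day 1, at 1.32 (1.01 to 1.72), and at 48296150 to 48297791 on day 3, at 1.37 (1.01 to 1.87). By fold these ratios were 1.14 and 1.31. The region at 48296150 held 73, 91, 106 and 64 reads, and its ratio of day 7 to day 3 was 0.666 (0.480 to 0.916).

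Of the COL1A1 regions, 2 were gained on all 3 induced days, both upstream. The one at 48290430 to 48290722 held 94, 100 and 83 reads with folds of 2.1, 2.23 and 2.47. Its local background was 44.2, 44.2 and 33.1 reads on days 1, 3 and 7. The one at 48298750 to 48299188 held 48, 60 and 44 reads with folds of 2.20, 2.54 and 2.56. The day 0 reads at both are not known, since a missing peak does not give them. A day 0 peak inside the gene, at 48264488 to 48264763, held 89 reads at a fold of 1.90 and had no counterpart on days 1 and 7, while on day 3 it held 85 reads.

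FN1 had the fewest regions. Only the start and 1 region of the downstream flank were called on day 0. That second region, on chromosome 2 at 216176204 to 216177526, was the highest of all 91 with 203, 202, 195 and 191 reads on days 0, 1, 3 and 7. Its ratios to day 0 were 1.04 (0.855 to 1.28), 0.906 (0.740 to 1.11) and 0.978 (0.799 to 1.2). It lies 124 kb from the FN1 start. RefSeq lists ATIC, an enzyme gene of purine synthesis, as the protein-coding neighbour of FN1 and as overlapping it. Its position was not placed in hg19. The flank regions of this span, the highest of all 91 among them, were therefore not assigned to either gene.

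The FN1 span gained 3 regions on all 3 induced days, 2 of them in the downstream flank. The highest, at 216193398 to 216194093, held 51, 57 and 47 reads on days 1, 3 and 7 at folds of 4.7, 4.83 and 4.57, and its neighbour at 216192810 to 216193332 held 27, 34 and 29. Upstream, 216319229 to 216319563 held 20, 28 and 25 reads, close to the smallest summits of these lists. The ratios between successive induced days at all 3 had intervals that took in 1. Inside the gene, away from the start, a single peak was called, on day 3 alone, with 26 reads.

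Over the 15 regions gained on all 3 induced days, the median scaled summit was 9.43, 8.92 and 7.70 times the background on days 1, 3 and 7. Over all 19074 regions with that pattern it was 6.62, 8.03 and 6.39. Day 3 was the highest of the induced days in 10 of the 15, day 1 in 5 and day 7 in 0, against 58.5%, 25.8% and 15.7% of all such regions. A day 3 summit above that of day 1 by more than counting error was seen in 2 of the 15, both past the COL4A2 end, against 16.2%, and the reverse in 0, against 0.744%. A day 7 summit below that of day 3 by more than counting error was seen in 3 of the 15, the same pair and the COL1A2 region at 93993399, against 21.6%, and the reverse in 0, against 0.43%.

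**Figure D4:**
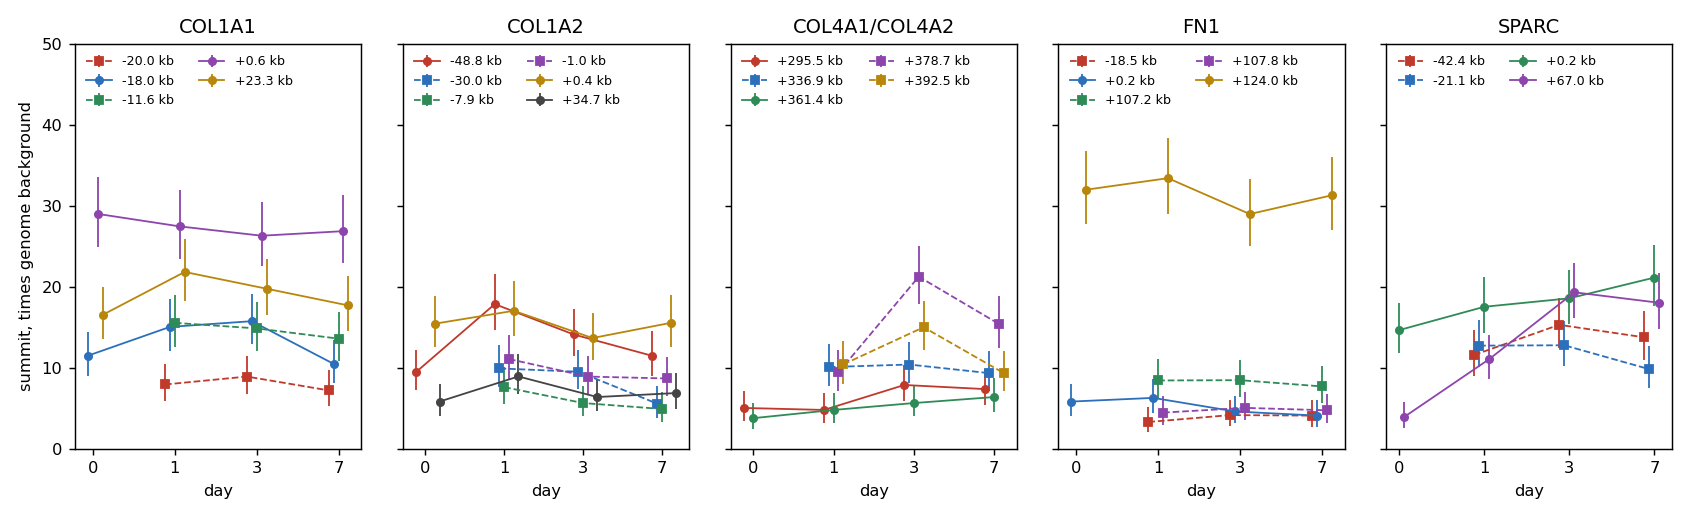
Scaled summit (y axis, multiples of the genome-wide background) on days 0, 1, 3 and 7 for regions at the starts, those gained on all 3 induced days with the highest summits and those with the highest ratio to day 0, labelled by distance of the region's centre from the start (COL4A1/COL4A2: from the outer end of COL4A1). Bars are exact Poisson 95% intervals of the reads; dashed lines with squares have no day 0 peak. The SPARC region at 67.0 kb stands at 3.94, 11.1, 19.3 and 18.0, while the COL1A1 start stays between 26.3 and 29.0.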

How the data were processed

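ATAC-seq was done on 8 samples in 4 groups of 2 replicates, grouped by their titles; nothing says that replicates came from separate cultures. The deposited file joins 4 narrowPeak lists. The submitters' processing notes name Bowtie2, deepTools, MACS2 version 2.1.1.20160309 and hg19, but the filters, any transposase offset and the pooling of replicates are not stated. For each peak the authors deposited a score (the -log10 q multiplied by 10 and truncated), a fold, which is a ratio of summit to local background, the -log10 of the p-value and of the q-value, and a further value, the summit offset in bp.

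Summit reads were recovered by solving (reads + 1) / (background + 1) for the deposited fold together with the Poisson tail for the deposited -log10 p. Each list's most frequent local background served as its genome-wide background. Peaks sharing at least 1 bp were merged, and a region's value on a day is its highest summit. Ratios of scaled summits carry exact conditional binomial 95% intervals, and shares exact Clopper-Pearson ones; both cover counting error only, and PCR copies would make them too narrow.

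In each span the text names regions within 1 kb of a start, up to 3 gained on all 3 induced days with the highest summit, up to 2 with the highest ratio to day 0, the lowest ratio, the highest summit and up to 2 lost by day 7; other regions named were chosen after their values were seen. The members and lists were chosen with earlier results of these data known. Strands are from RefSeq, and for COL1A1 and COL1A2 from textbook knowledge. Other matrix genes were not analysed here. Alternatives tried were a stricter score, reciprocal overlap, lists of equal length, other flanks, the authors' fold, a median-ratio scaling and a smaller fold rule. SciPy 1.17.1, pandas 2.3.3 and matplotlib 3.10.9 were used under Python 3.11.15. Coordinates are 1-based hg19 unless GRCh38 is named.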

Additional observations from a re-analysis of the deposited data

How the results depend on the processing

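No paired analysis was possible because the deposited lists hold no value per sample; for the same reason no replicate could be left out. With a score of at least 50, 2 regions were lost by day 3 in place of 1, and the other counts and medians stayed within 1.5 times or their interval. With lists of equal length the gains were 11, 17 and 14 by days 1, 3 and 7 and 8 on all 3 days, and the losses by days 1 and 3 were 5 and 4. Without flanks, 5, 10 and 6 of the 28 regions in the gene spans were gained by days 1, 3 and 7, and 2 on all 3 days. The shares over all regions were 26.7%, 32.9% and 24.2%, and 13.1% on all 3 days. Flanks of 10 kb gave gains of 13, 17 and 10, and 4 on all 3 days. Flanks of 100 kb gave losses of 4, 7 and 9. For flanks of 10 and 100 kb the number of regions is not given, so these counts cannot be set against a share. The bases searched change with the flank, and their part in these counts was not tested. Under a reciprocal overlap of 50% between peaks, 8, 9 and 10 of the 47 day 0 peaks were lost by days 1, 3 and 7. By the authors' fold 0 regions were at least 2-fold higher on day 1 and 0 on day 7, and the median log2 change on day 7 was -0.049. A 1.5-fold rule gave 3, 2 and 2 higher regions. Scaling by the median ratio of regions in every list, which moved days 1, 3 and 7 by 0.08, -0.08 and -0.04, gave a day 1 median of 0.0587. Without the SPARC span, an alternative added after seeing the data, 17 regions were gained by day 7, beside 10 of the 22 SPARC regions. Of 57 changes of named regions against day 0, 19 turned direction by fold; in 17 of them the counting interval took in 1. The other 2 are the COL1A1 region 8.6 kb upstream on day 7 (log2 0.0588) and the COL1A2 region 48.8 kb upstream on day 3 (log2 -0.00669); the cause was not tested. Summits near the smallest called, 16 to 18 reads, cannot show modest changes.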
